A study of Rattus norvegicus with 6 samples.

Results

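Axon guidance ligands and receptors are the semaphorins, Slits, ephrins and netrins and the plexins, Robos, Eph receptors and Unc5 and Dcc proteins that bind them. Members were the genes of the deposited table whose symbol belongs to one of these families. They numbered 63 of the 22085 genes listed, 33 ligand genes and 30 receptor genes. The cells were grown out of rat amniotic fluid taken on embryonic day 18.5 and were harvested for RNA sequencing at passage 4. One group came from control pregnancies and the other from pregnant rats of a preeclampsia model, with 3 libraries each. Rat strain, the way the model was induced, and the number of dams or fetuses behind a library are not given in the sources used here, so p-values measure only the spread between these libraries, which may be technical.

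These families were first studied for steering growing axons. A ligand on or released from one cell binds a receptor on another, and the receptor acts on small GTPases and the actin cytoskeleton to attract or repel the moving edge. The same proteins act outside the nervous system: Slits and Robos, semaphorins and plexins, and EphB4 with ephrin-B2 guide blood vessels, and several members control migration and adhesion of mesenchymal and epithelial cells. Ephrins also signal backwards into the cell that carries them.

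Total counts were between 48402185 and 59193961 per library. The cells were checked on 5 mesenchymal markers (Thy1, Vim, Pdgfrb, Col1a1 and Cxcl12). These summed to between 17200 and 23500 CPM (counts scaled by library size) in control libraries and between 20600 and 32800 in preeclampsia libraries. The 8 macrophage and blood markers were all measured. Their sums, in the order of libraries 1 to 3 that is kept for all values below, were 250, 185 and 33.8 CPM for the control group, with 40.1, 868 and 458 CPM for the preeclampsia group, so control library 3 and preeclampsia library 1 were low. The 4 endothelial markers summed to between 4.91 and 16.1 CPM, with Cdh5 and Pecam1 under 1 CPM in every library, and the 5 glial and neural crest markers to between 0.966 and 6.46 CPM, with Sox10 at 0 counts in all 6 libraries. The 4 mesothelial markers summed to 12.9 to 36.8 CPM in the control group and 97.4 to 176 CPM in the preeclampsia group, where most of it was Msln, at 7.97 to 14.5 and 89.2 to 154 CPM. The other 3, Lrrn4, Upk3b and Wt1, had log2 fold changes below 0. For the 5 epithelial markers the sums were 7.45 to 75.7 and 0.634 to 2.36 CPM, Epcam being at 0 in all libraries but preeclampsia library 2, and for the 8 neuronal markers 131 to 234 and 101 to 267 CPM, mostly Tubb3 and Stmn2. The part of any of these cell types in the results was not tested. In such bulk libraries, fewer cells of a type and less RNA per cell cannot be told apart.

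Most of the members were expressed, and the families did not move as a block between the groups. Of the 63 members, 18 had a mean of at least 10 FPKM (fragments scaled by transcript length and library size, as the authors deposited them), 21 lay from 1 to under 10 and 24 under 1. Low counts kept 9 members out of the test: Robo3, Epha3, Epha5, Epha6, Epha8, Ephb1, Efnb3, Dcc and Unc5d, with at most 29 counts and 0.07 FPKM in any library, Epha6 being at 0 in all 6. The remaining 54 were tested within one fit over 15776 genes by edgeR's quasi-likelihood test. None of the 54 passed an adjusted p of 0.05, as 0.0% of all tested genes did, the adjusted p of members running from 0.228 to 0.986. Fold changes are given as log2 of preeclampsia over control. They were above 0 for 27 members and below 0 for 27, against 51.7% above 0 among all tested genes, and the median was 0.01 in both sets.

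An unadjusted p under 0.05 was found for 9 of the 54 members (16.7%), against 9.19% of all tested genes. Of these 9, 7 were higher in the preeclampsia group (4.13% of all tested genes were) and 2 lower (5.06% of all). The higher ones were the 4 tested EphB receptors, the ephrin Efna1, the semaphorin Sema3f and the plexin Plxna3, and the lower ones Robo2 and the ephrin Efna3. The count fell to 5 without control library 1, control library 2, preeclampsia library 2 or preeclampsia library 3, each left out alone (8.93% to 9.26% of the members tested there), while the share of all tested genes fell to between 6.09% and 6.78%. In 6 members (11.1%) all control values lay on one side of all preeclampsia values, against 15.6% of all tested genes. Sema3f, Ephb3 and Efna1 lay wholly higher (7.25% of all genes did) and Robo2, Efna3 and Ntn4 wholly lower (8.3% of all). DESeq2, run as an alternative, called 2 members, Robo2 and Efna3, and 2.36% of the genes to which it gave an adjusted p.

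**Figure D1:**
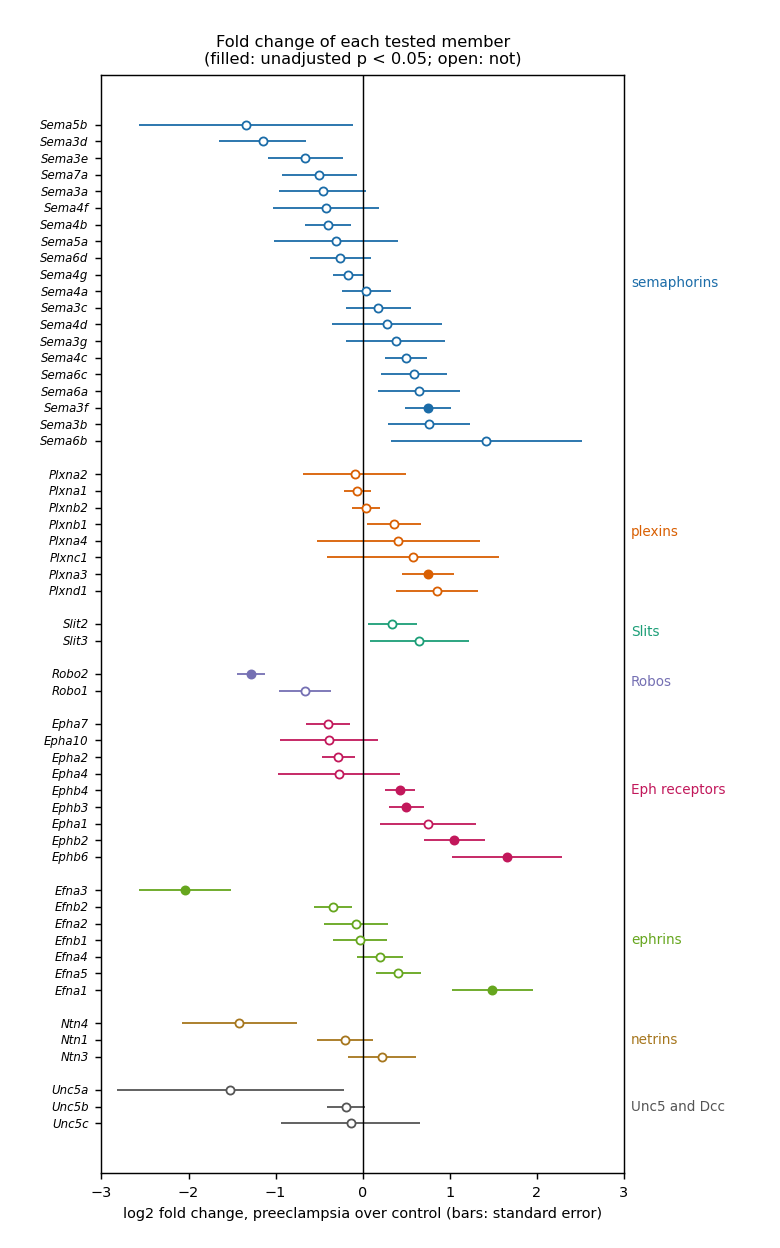
Log2 fold change, preeclampsia over control, on the horizontal axis for each of the 54 tested members, grouped by family, with bars of 1 standard error from edgeR and filled points for an unadjusted p under 0.05. Robo2 at -1.28 has the shortest bar of the members beyond 1 in either direction, the 4 EphB receptors all lie to the right of 0, and Efna1 and Efna3 lie at opposite ends of the ephrins.

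The Robos, receptors for the secreted Slit proteins, gave the lowest family median, -0.97 over the 2 tested genes. Robo2 stood at 2.80, 2.25 and 3.09 FPKM in the control group, with 1.17, 1.00 and 1.15 FPKM in the preeclampsia group. Every preeclampsia library lay below every control library, and the 3 preeclampsia values were close together. The counts behind them were 2501, 2104 and 2869 against 1092, 1066 and 1002. Its log2 fold change was -1.28 (SE 0.16), with an unadjusted p of 0.00013, the 9th smallest of the 15776 genes, and an adjusted p of 0.228 by edgeR. DESeq2 called it (-1.27, adjusted p = 2.05e-08), and over all alternatives its adjusted p ran up to 0.759.

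Robo1, the other broadly acting Slit receptor, was at 24.9, 38.1 and 36.5 FPKM in the control libraries and 23.2, 25.7 and 12.7 FPKM in the preeclampsia libraries. Preeclampsia library 3 was lowest and preeclampsia library 2 reached the level of control library 1, so the groups overlapped. Its log2 fold change was -0.66 (SE 0.30, adjusted p = 0.575 by edgeR). There were 1.81, 0.956 and 1.37 counts of Robo2 per count of Robo1 in the control group, with 0.809, 0.625 and 1.46 in the preeclampsia group.

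Their ligands were on the other side of 0 without passing any threshold. Slit2 was at 45.6, 54.6 and 27.5 FPKM in the control group and 46.0, 50.5 and 63.2 FPKM in the preeclampsia group (log2 fold change 0.34, SE 0.28, adjusted p = 0.792 by edgeR). Slit3 was at 39.1, 40.5 and 13.5 FPKM and at 23.0, 45.7 and 75.5 FPKM (0.65, SE 0.57, adjusted p = 0.804). Both ligand genes were lowest in control library 3, and Slit3 next lowest in preeclampsia library 1. For Slit3 the highest library had 5.88 times the CPM of the lowest, and for Slit2 2.42 times. The difference between Slits and Robos was not tested.

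The Eph receptors are the largest family of receptor tyrosine kinases, and most tested EphA and EphB genes lay on opposite sides of 0. All 4 tested EphB genes were above 0 (51.7% of all tested genes were), with a median of 0.77. Each had an unadjusted p under 0.05 by edgeR (9.19% of all did), although their adjusted p lay between 0.473 and 0.537. Of the 5 tested EphA genes 1 was above 0 and 4 below, with a median of -0.28 and none with an unadjusted p under 0.05. The 1 above 0 was Epha1, at 0.75, which was higher than Ephb3 at 0.50 and Ephb4 at 0.43. The difference between the classes was not tested.

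Ephb2, a receptor for B-type ephrins, was at 1.70, 3.45 and 1.80 FPKM in the control group, with 3.37, 5.95 and 4.73 FPKM in the preeclampsia group. Control library 2 and preeclampsia library 1 had almost the same value, which was the only overlap. The log2 fold change was 1.05 (SE 0.35, adjusted p = 0.473 by edgeR). Ephb3, which like Ephb2 sorts cells in the gut epithelium, was at 2.57, 3.91 and 3.90 FPKM and at 5.62, 4.11 and 4.72 FPKM. The groups did not overlap, control library 2 and preeclampsia library 2 being nearest to each other, and the log2 fold change was 0.50 (SE 0.20, adjusted p = 0.521).

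Ephb4, the receptor of veins that pairs with ephrin-B2, was the EphB gene with the highest FPKM, at 23.7, 22.4 and 26.8 in the control libraries and 25.9, 35.8 and 34.5 in the preeclampsia libraries. Preeclampsia library 1 lay inside the control range and the other two above it (0.43, SE 0.17, adjusted p = 0.537 by edgeR). Ephb6, whose kinase domain lacks catalytic activity, was at 1.21, 1.41 and 3.03 FPKM and at 2.09, 5.01 and 10.1 FPKM. Preeclampsia library 3 was far above the others, preeclampsia library 1 lay below control library 3, and the log2 fold change was 1.66 (SE 0.63, adjusted p = 0.513). All 4 EphB genes stayed above 0 in each of the 14 alternatives, which reuse the same libraries. The number of them with an unadjusted p under 0.05 by edgeR was 0 without control library 1 and 0 without preeclampsia library 3.

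Among EphA genes, Epha2, a receptor for ephrin-A1 in epithelium and endothelium, had the highest FPKM, at 17.5, 20.7 and 13.6 in the control libraries and 14.3, 12.1 and 15.9 in the preeclampsia libraries. The groups overlapped, control library 2 being highest (-0.28, SE 0.19, adjusted p = 0.737 by edgeR). The other tested EphA genes were Epha1, Epha4, Epha7 and Epha10, with log2 fold changes from -0.40 to 0.75.

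The ephrins, membrane-bound ligands, ran in log2 fold change from Efna3 at -2.04, the lowest of the members, to Efna1 at 1.49. The family median was -0.03. These are neighbours: in the table's coordinates, whose sequence names are those of the mRatBN7.2 assembly, Efna1 spans 174681676 to 174690306 on chromosome 2, Efna3 174729192 to 174738111 and Efna4 174748729 to 174752979, all on the minus strand. Efna1, a ligand of EphA2, was at 0.12, 0.13 and 0.29 FPKM in the control group, with 0.41, 0.46 and 0.64 FPKM in the preeclampsia group. Every preeclampsia value was above every control value, on counts of 23, 25 and 56 against 78, 101 and 116 (SE 0.47, adjusted p = 0.470 by edgeR).

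Efna3 went the other way, at 0.60, 1.08 and 1.13 FPKM in the control libraries and 0.10, 0.27 and 0.28 FPKM in the preeclampsia libraries, from counts of 74, 138 and 143 against 13, 40 and 34. All preeclampsia values were below all control values, and preeclampsia library 1 was lowest (SE 0.53, adjusted p = 0.441 by edgeR). DESeq2 called it (-2.04, adjusted p = 0.0259), and the adjusted p over the alternatives reached 0.761. There were 0.311, 0.181 and 0.392 counts of Efna1 per count of Efna3 in the control group, with 6.0, 2.52 and 3.41 in the preeclampsia group. Efna4, between 4.36 and 7.97 FPKM in all libraries, had a log2 fold change of 0.20 (SE 0.26). Both genes were near the lower end of what was tested, and small counts in this table were not evenly spread: between 35.1% and 38.0% of counts from 1 to 15 in a library were multiples of 4.

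The promoters of these neighbours are shown because the genes differed in opposite directions, and that of Robo2 because it had the smallest p of the members. Each is 250 bases before to 50 bases after the RefSeq start, 5′ to 3′ on the gene's strand, in the GRCr8 build, which is another build than the table's. Capitals mark the GC box GGGCGG on either strand, the element bound by Sp1-type factors.
Efna1 (chr2:176986772-176987071, minus strand): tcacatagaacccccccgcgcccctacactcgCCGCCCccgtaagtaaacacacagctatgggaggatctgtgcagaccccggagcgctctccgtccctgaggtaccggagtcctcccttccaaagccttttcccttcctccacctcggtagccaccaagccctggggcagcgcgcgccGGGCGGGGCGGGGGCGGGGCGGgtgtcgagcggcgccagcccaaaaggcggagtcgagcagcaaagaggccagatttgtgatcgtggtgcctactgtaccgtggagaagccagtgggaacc
Efna3 (chr2:177035789-177036088, minus strand): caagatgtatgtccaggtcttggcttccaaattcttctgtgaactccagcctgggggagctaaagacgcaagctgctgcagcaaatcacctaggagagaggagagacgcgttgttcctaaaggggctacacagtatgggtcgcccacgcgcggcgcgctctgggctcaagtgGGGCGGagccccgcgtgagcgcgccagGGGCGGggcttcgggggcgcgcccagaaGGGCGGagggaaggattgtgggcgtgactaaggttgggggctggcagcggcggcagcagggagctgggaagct
Robo2 (chr11:26526363-26526662, minus strand): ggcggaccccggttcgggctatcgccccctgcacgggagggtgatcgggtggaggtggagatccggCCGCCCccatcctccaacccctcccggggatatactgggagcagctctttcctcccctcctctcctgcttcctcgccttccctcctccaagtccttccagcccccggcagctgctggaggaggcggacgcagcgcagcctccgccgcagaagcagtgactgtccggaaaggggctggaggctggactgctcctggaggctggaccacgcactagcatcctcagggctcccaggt

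The GC box matched 5 times in Efna1, with 4 matches in one run, 3 times in Efna3 and 1 time in Robo2. It was present in 33.1% of 33469 RefSeq promoters of this length and in 58.0% of the 50 members found there. The second form of the core of hypoxia response elements, GCGTG, matched on either strand 3 times in Efna3, 1 time in Robo2 and not in Efna1. It was present in 29.7% of all promoters and in 38.0% of the member promoters. The first form, ACGTG, was in none of these windows, in 19.3% of all promoters and in 24.0% of the member promoters. Motifs made mostly of G and C, as the GC box and GCGTG are, are common in GC-rich windows. The Efna1, Efna3 and Robo2 windows held 66%, 64.3% and 68.3% G and C. The median was 63.8% over the 50 member promoters and 51.7% over all promoters.

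Windows of the 4 EphB genes are printed in the same way, as the Eph class whose tested members all lay on one side of 0.
Ephb2 (chr5:154360375-154360674, minus strand): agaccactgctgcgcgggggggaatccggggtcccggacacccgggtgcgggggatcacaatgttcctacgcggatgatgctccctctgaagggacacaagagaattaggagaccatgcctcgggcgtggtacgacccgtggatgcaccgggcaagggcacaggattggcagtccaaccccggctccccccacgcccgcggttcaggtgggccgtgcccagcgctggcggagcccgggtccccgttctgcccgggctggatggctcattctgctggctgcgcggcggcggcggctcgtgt
Ephb3 (chr11:93363726-93364025, minus strand): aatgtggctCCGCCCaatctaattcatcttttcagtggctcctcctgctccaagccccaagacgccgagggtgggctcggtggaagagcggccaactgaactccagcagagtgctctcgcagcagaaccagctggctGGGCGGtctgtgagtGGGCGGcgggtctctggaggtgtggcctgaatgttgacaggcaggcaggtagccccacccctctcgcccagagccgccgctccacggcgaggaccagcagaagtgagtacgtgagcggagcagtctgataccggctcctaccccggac
Ephb4 (chr12:24988339-24988638, minus strand): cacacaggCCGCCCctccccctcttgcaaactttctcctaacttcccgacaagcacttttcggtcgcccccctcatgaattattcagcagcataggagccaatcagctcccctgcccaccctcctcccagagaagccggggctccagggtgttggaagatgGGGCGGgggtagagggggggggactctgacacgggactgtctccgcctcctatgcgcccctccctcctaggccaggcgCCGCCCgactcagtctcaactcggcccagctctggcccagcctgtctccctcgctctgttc
Ephb6 (chr4:71458382-71458681, plus strand): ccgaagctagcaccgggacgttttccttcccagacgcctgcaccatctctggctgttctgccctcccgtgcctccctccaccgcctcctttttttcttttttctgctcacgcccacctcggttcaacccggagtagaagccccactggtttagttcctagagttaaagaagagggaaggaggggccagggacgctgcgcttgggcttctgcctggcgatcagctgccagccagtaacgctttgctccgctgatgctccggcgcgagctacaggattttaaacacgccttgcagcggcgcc

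The GC box matched 3 times each in Ephb3 and Ephb4 and not in Ephb2 or Ephb6. GCGTG was the reverse, with 2 matches each in Ephb2 and Ephb6, while ACGTG matched 1 time, in Ephb3. Also searched were an AP-1 site (TGANTCA), a TEAD site (GGAATG) and a TATA box (TATAAA), which matched in none of the printed windows. None of the motifs searched was in all 4 EphB windows.

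**Figure D2:**
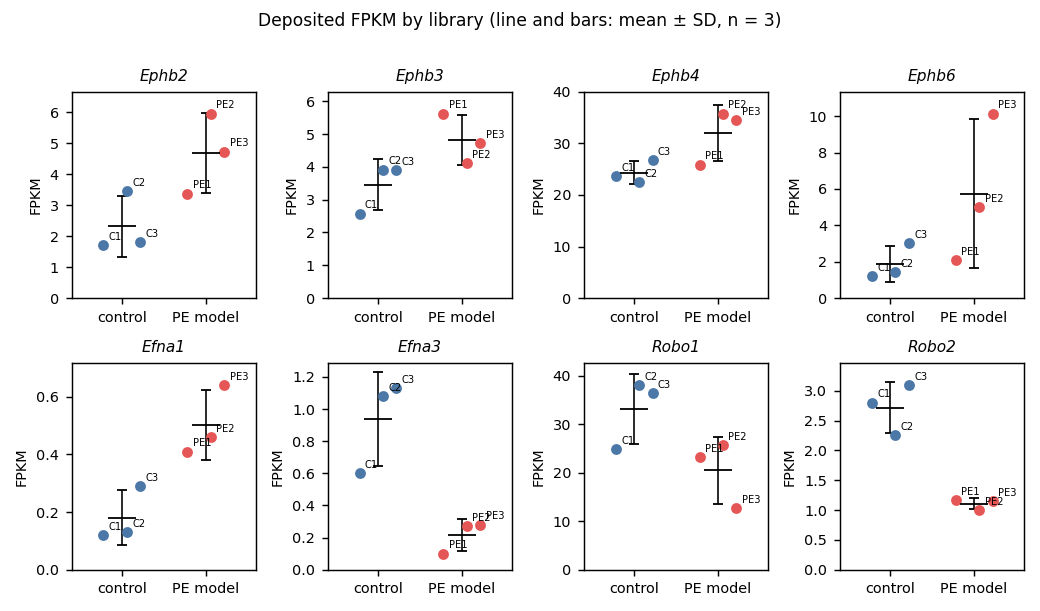
Deposited FPKM on the vertical axis in each library for the 4 tested EphB receptors, Efna1, Efna3, Robo1 and Robo2, with points labelled C1 to C3 (control) and PE1 to PE3 (preeclampsia model) and lines for the mean ± SD of 3 libraries. Robo2, Efna1, Efna3 and Ephb3 have groups that do not overlap, and Ephb6 in preeclampsia library 3 stands at 10.1 FPKM.

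The remaining ephrins with the highest FPKM did not stand apart. Efna5, a ligand of several EphA receptors, was at 7.57, 7.99 and 7.33 FPKM in the control libraries and 6.79, 9.47 and 13.6 FPKM in the preeclampsia libraries (0.41, SE 0.26, adjusted p = 0.712 by edgeR), preeclampsia library 3 being highest. Efnb2, the arterial ligand of EphB4, was at 25.5, 47.4 and 38.5 FPKM and at 26.4, 27.9 and 32.0 FPKM. By FPKM control library 1 lay below all 3 preeclampsia libraries and control libraries 2 and 3 above them (-0.34, SE 0.22, adjusted p = 0.721). By CPM control library 1 was at 113.8, above preeclampsia library 1 at 110.5. Efna2 and Efnb1 had log2 fold changes of -0.08 and -0.03.

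The 20 semaphorins were all tested, 10 above and 10 below 0, with a median of -0.07. Sema3f, a secreted class 3 ligand that signals through the co-receptor neuropilin-2, was the single one with an unadjusted p under 0.05. It stood at 9.58, 11.4 and 18.7 FPKM in the control group, with 18.95, 24.4 and 21.9 FPKM in the preeclampsia group. Control library 3 nearly reached preeclampsia library 1, so that the groups were only just apart (0.75, SE 0.26, adjusted p = 0.473 by edgeR).

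Sema3c, a secreted ligand known from heart outflow tract development, was the semaphorin with the highest FPKM. Its values were 212, 224 and 356 FPKM in the control group and 193, 235 and 451 FPKM in the preeclampsia group. The third library of each group was highest, and the log2 fold change of 0.18 (SE 0.37, adjusted p = 0.918 by edgeR) became -0.27 without preeclampsia library 3. Counts of this gene ran from 48111 to 104751.

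In the membrane-bound classes, Sema4c, a ligand of plexin-B2, was at 3.87, 4.18 and 6.37 FPKM in the control group and 5.46, 7.61 and 6.93 FPKM in the preeclampsia group (0.50, SE 0.24, adjusted p = 0.602 by edgeR). One preeclampsia library lay below control library 3. Sema6a, which binds A plexins, was at 6.46, 4.76 and 14.0 FPKM and at 10.4, 9.34 and 19.0 FPKM, the third library of each group again being highest (0.65, SE 0.47, adjusted p = 0.749). Sema7a, which is held by a lipid anchor and binds plexin-C1 and integrins, was at 0.84, 1.82 and 0.62 FPKM and at 0.67, 0.94 and 0.67 FPKM (-0.50, SE 0.43, adjusted p = 0.796). Its sign rested on control library 2, without which the log2 fold change was 0.07.

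Sema5a, a transmembrane ligand of plexin-A and plexin-B receptors, was at 9.74, 61.6 and 42.6 FPKM in the control libraries and 12.6, 32.6 and 43.4 FPKM in the preeclampsia libraries. The first library of each group was low and the others high, so the spread within groups exceeded the difference between them (-0.31, SE 0.71, adjusted p = 0.926 by edgeR). It was 0.23 without control library 2 and 0.06 without preeclampsia library 1. The remaining 14 semaphorins had log2 fold changes from -1.34 for Sema5b to 1.42 for Sema6b. Sema6b, named after its values were seen, had the widest spread of the tested members with counts in every library, at 0.95, 1.07 and 0.38 FPKM in the control group and 0.13, 4.51 and 1.68 FPKM in the preeclampsia group.

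The plexins, semaphorin receptors, had 6 of 8 tested members above 0 and a median of 0.38, which was 0.08 without preeclampsia library 2, 0.11 without control library 3, 0.20 without preeclampsia library 3 and 0.60 without preeclampsia library 1. Plxna3, the receptor that acts with neuropilins in the response to Sema3f, was at 4.76, 3.53 and 7.72 FPKM in the control libraries and 9.27, 10.1 and 6.99 FPKM in the preeclampsia libraries. Preeclampsia library 3 lay below control library 3, and the other values were apart (0.75, SE 0.30, adjusted p = 0.539 by edgeR). Plxna1 was even, at 19.6, 21.5 and 22.8 FPKM against 16.4, 21.6 and 22.3 FPKM (-0.06, SE 0.16, adjusted p = 0.943), and it turned to 0.09 without preeclampsia library 1.

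Plxnb2, a widely expressed receptor for class 4 semaphorins, had the highest FPKM of the members, at 722, 584 and 769 in the control group and 685, 768 and 656 in the preeclampsia group. The groups overlapped almost wholly (0.04, SE 0.16, adjusted p = 0.956 by edgeR), and its sign turned without control library 2 (-0.07) or preeclampsia library 2 (-0.05). Plxnb1 was at 40.6, 32.8 and 19.9 FPKM and at 34.3, 39.8 and 44.8 FPKM, with control library 3 lowest (0.36, SE 0.31, adjusted p = 0.798). FPKM orders genes only loosely here, because the lengths implied by the deposited counts and FPKM ran from 326 bases for Plxnb1 and 761 for Plxnb2 to 9597 for Plxna1 among receptors of one family. FPKM is therefore compared between libraries within a gene, and its order between genes is that of the table.

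Plxnd1, the plexin of endothelium and other mesoderm, was at 16.7, 15.6 and 18.1 FPKM in the control libraries and 12.8, 49.4 and 25.9 FPKM in the preeclampsia libraries. The control values were close together, while preeclampsia library 2 was highest of all and preeclampsia library 1 lowest (0.85, SE 0.47, adjusted p = 0.669 by edgeR). Without preeclampsia library 2 the log2 fold change was 0.22, and without preeclampsia library 1 it was 1.21. Plxnc1, a receptor of leukocytes and other cells for Sema7a, was at 4.57, 2.57 and 0.20 FPKM and at 1.73, 3.98 and 5.20 FPKM (0.58, SE 0.99, adjusted p = 0.903). Its 2 lowest libraries, control library 3 and preeclampsia library 1, were the 2 lowest in macrophage and blood markers, at 33.8 and 40.1 CPM against 185 to 868 CPM in the other 4. By CPM, the same 2 libraries were the lowest in 8 of the 54 members (14.8%), which were Plxnc1, Sema6b, Sema7a, Plxna2, Slit2, Slit3, Efna5 and Unc5b, and in 7.81% of all tested genes. The part of macrophages in these values was not tested.

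**Figure D3:**
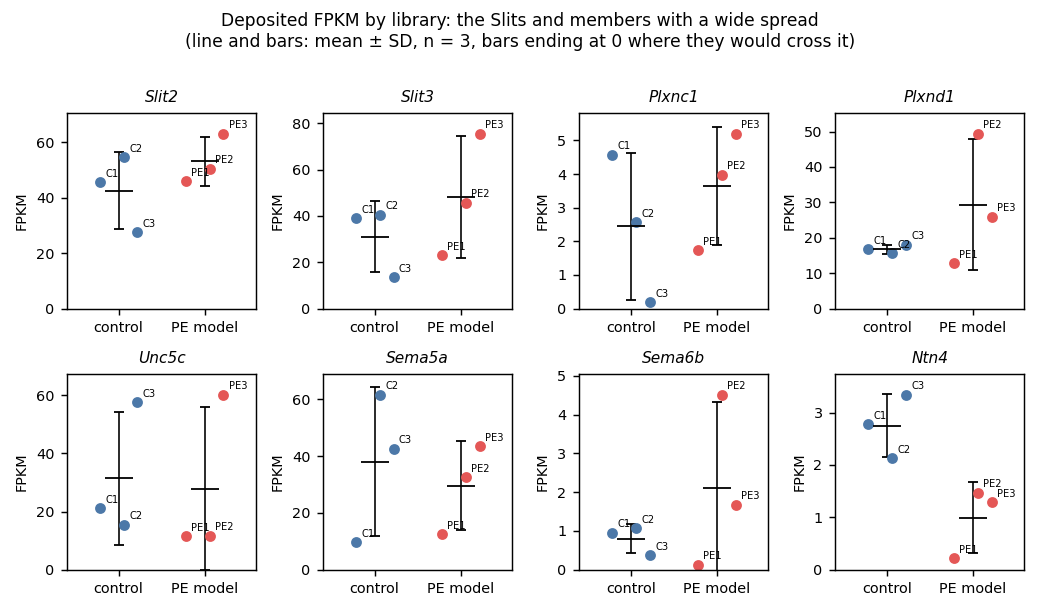
Deposited FPKM on the vertical axis in each library for Slit2, Slit3 and 6 members with wide spread or separated groups, with points labelled C1 to C3 (control) and PE1 to PE3 (preeclampsia model) and lines for the mean ± SD of 3 libraries, the bars ending at 0. Unc5c is high in the third library of both groups, Plxnc1 is at 0.20 in control library 3, and Ntn4 has groups that do not overlap.

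The netrins are laminin-related secreted cues, and the Unc5 receptors mediate repulsion by them. Ntn1 was at 59.5, 81.3 and 59.2 FPKM in the control libraries and 37.6, 81.5 and 51.4 FPKM in the preeclampsia libraries. The groups overlapped (-0.20, SE 0.32, adjusted p = 0.897 by edgeR), and the log2 fold change was 0.04 without preeclampsia library 1, the lowest. Ntn4, a netrin of basement membranes, is named because its groups did not overlap. It was at 2.78, 2.13 and 3.34 FPKM and at 0.22, 1.47 and 1.29 FPKM, from counts of 3308, 2649 and 4125 against 281, 2090 and 1504. Preeclampsia library 1 was far below the other two, and the log2 fold change of -1.42 had an SE of 0.66, an unadjusted p of 0.07 and an adjusted p of 0.591.

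Unc5b, a netrin receptor also known from capillary endothelium, was at 223, 322 and 214 FPKM in the control group and 185, 209 and 261 FPKM in the preeclampsia group. Control library 2 was highest, and without it the log2 fold change of -0.19 (SE 0.22, adjusted p = 0.858 by edgeR) was 0.01. Unc5c was at 21.1, 15.5 and 57.7 FPKM and at 11.6, 11.7 and 60.2 FPKM (-0.14, SE 0.80, adjusted p = 0.973). The third library of each group had several times the level of the others, and leaving out single libraries took the log2 fold change from -1.40 to 0.61. Unc5a, with at most 44 counts, had a log2 fold change of -1.52 (SE 1.30), and Dcc, the attractive netrin receptor, had 8 counts in control library 2 and 0 in the other 5.

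**Figure D4:**
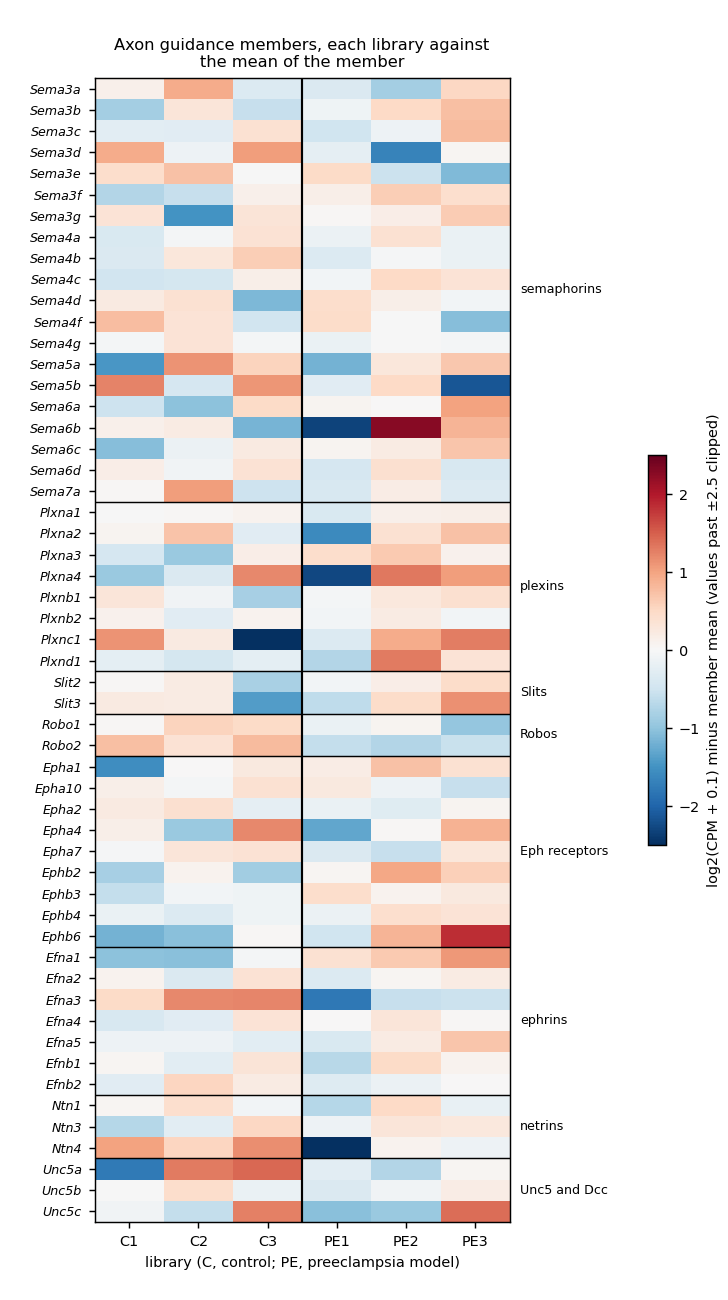
Level of each of the 54 tested members (rows, by family) in each library (columns, C control and PE preeclampsia model) as log2(CPM + 0.1) minus the mean of the member, red above and blue below it, clipped at 2.5 in either direction. Robo2 and Efna3 are red in all control columns and blue in all preeclampsia columns, while Plxna4, Plxnc1, Sema6b and Unc5c differ more between libraries of one group than between the groups.

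Differences between libraries of one group were wider for members than for genes at large. The median SD of log2 CPM within groups was 0.508 over the 54 members, against 0.314 over all tested genes. Over all 6 libraries of both groups, the highest had at least 4 times the CPM of the lowest in 19 members. The median of that ratio over the tested members was 2.94. This ratio also holds the difference between the groups, and it was not taken over all tested genes. The ligands had a median SD of 0.534 and the receptors 0.438. By family, the median SD was smallest for the Robos (0.308) and largest for the Unc5 genes (1.191).

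Further genes listed for these pathways, mostly as co-receptors and intracellular effectors, stood on 5 lists. They were measured for 85 of 85 genes, of which 81 were tested. None passed an adjusted p of 0.05 in edgeR. Fold changes were above 0 for 28 and below for 53, against 51.7% above 0 among all tested genes, with a median of -0.15 against 0.01. An unadjusted p under 0.05 was found for 15 (18.5%, against 9.19% of all tested genes), 2 higher (4.13% of all) and 13 lower (5.06% of all). Of 23 tested genes on the list of semaphorin and plexin co-receptors and effectors, 8 were among the 15. A place on that list does not show that a gene acts in semaphorin signalling, Plxdc1 and Plxdc2 included. The 8 included the collapsin response mediators Crmp1 and Dpysl3, which carry semaphorin signals to microtubules. Crmp1 had 3.72, 4.58 and 6.0 FPKM in the control group but 0.24, 0.07 and 0.26 FPKM in the preeclampsia group, the log2 fold change of -4.62 being the farthest from 0 on these lists (SE 0.52, adjusted p = 0.228 by edgeR). Dpysl3 was at 88.6, 119 and 134 FPKM in the control group and 32.2, 58.4 and 52.7 FPKM in the preeclampsia group, with no overlap (-1.22, SE 0.28, adjusted p = 0.397).

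Others of that list lower on average were Mical2, an actin-oxidising enzyme downstream of plexins, at 125 ± 36.5 and 71.3 ± 10.3 FPKM (SD, n = 3 each), Plxdc2 (-1.15, SE 0.41), the adhesion molecule L1cam (-1.30, SE 0.42), the small GTPase Rras (-0.42, SE 0.17, with a p that rounds to 0.05) and Plxdc1, which was under 0.1 FPKM in every library. Fyn, a Src-family kinase, was one of the 2 that were higher, at 7.57 ± 1.98 and 14.1 ± 2.46 FPKM (0.93, SE 0.23, adjusted p = 0.433 by edgeR). The other was Rgma, the repulsive guidance molecule that binds neogenin, at 2.97, 2.38 and 1.42 FPKM in the control libraries and 4.39, 5.46 and 8.08 FPKM in the preeclampsia libraries, with no overlap (1.42, SE 0.37, adjusted p = 0.441). DESeq2 called Crmp1, Dpysl3, Fyn and Rgma, and 2.36% of all genes to which it gave an adjusted p.

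Among the cytoskeletal and Slit, ephrin or netrin effectors, Enah, an actin polymerase that binds Robo, was at 40.2 ± 18.0 and 17.9 ± 3.06 FPKM (-1.17, SE 0.35), and Trio, a guanine nucleotide exchange factor downstream of Dcc, at 105 ± 5.6 and 75.8 ± 8.55 FPKM (-0.46, SE 0.12). The actomyosin-regulating kinases Rock1 and Rock2 had log2 fold changes of -0.42 (SE 0.14) and -0.53 (SE 0.21), the focal adhesion kinase Ptk2 -0.28 (SE 0.10) and the scaffold Itsn2 -0.30 (SE 0.11). Adjusted p-values of these 6 by edgeR lay between 0.440 and 0.530. The 4 pathway genes with the highest FPKM, Cfl1, Rhoa, Inppl1 and Pitpna, had log2 fold changes between -0.12 and 0.05. The lists were written with earlier results of these data known, so the counts describe them and lend no support to a direction.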

How the data were processed

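RNA from cultured amniotic fluid cells was enriched on oligo(dT) beads and ligated to adapters with unique molecular identifiers, per the labels' protocols. Named in the submitters' processing notes, with no role or order, are StringTie 2.1.6, HISAT2 2.2.1, FastQC and cutadapt 1.9. No source used here gives the genome build. Per the file headers, the deposited table holds for every gene a whole-number count and an FPKM in each library. The 2 columns of each of the 6 libraries were matched to samples by their descriptions.

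In R 4.3.3, edgeR 4.0.16 kept 15776 genes (filterByExpr), took TMM factors and compared the groups by its quasi-likelihood test, with no covariate. The p-values were adjusted over these genes by Benjamini-Hochberg. The standard error is the log2 fold change over the square root of F. Precision is given by a median standard error of 0.263 over all genes, at a biological coefficient of variation of 0.418. Non-overlap was read from log2 CPM with a prior count of 2. No 2 libraries were duplicates (smallest chi-square per degree of freedom 130.1). Alternatives were limma 3.58.1 on log2(FPKM + 1) and log2(FPKM + 0.1) for genes with a mean of at least 1 FPKM, DESeq2 1.42.0 on the genes edgeR kept, leaving out single libraries, other scalings, a block on replicate number, and no filter. Leaving out control library 3 and preeclampsia library 1 together was added after the data were seen. Scripts were tested on simulated data.

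Given library by library were members with an unadjusted p under 0.05, the member with the highest FPKM in each family or class, and the 10 members with the highest FPKM, 28 in all. Outside this rule, Sema6b and Ntn4 were added after their values were seen. Members and lists were chosen with earlier results of these data known. RefSeq promoters were matched by symbol for 50 of 63 members.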

Additional observations from a re-analysis of the deposited data

How the results depend on the processing

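Across 14 alternatives (12 for Efna1, Efna3 and Sema7a, whose mean FPKM was under 1 and which limma left out), 20 of the 28 members given library by library kept the direction of their fold change, and the 9 with an unadjusted p under 0.05 were among them. The alternatives reuse the same libraries, in which the 9 were picked by their p, so their kept direction lends no separate support. With single libraries left out the log2 fold change ran from -0.27 to 0.44 for Sema3c, -0.75 to 0.23 for Sema5a, -0.79 to 0.07 for Sema7a, -0.14 to 0.09 for Plxna1, -0.07 to 0.11 for Plxnb2, -0.58 to 0.04 for Ntn1, -0.34 to 0.01 for Unc5b and -1.40 to 0.61 for Unc5c. Without control library 3 and preeclampsia library 1 together it was 0.14 for Sema5a, 0.12 for Plxna1 and 0.98 for Unc5c. In that fit edgeR called 3 genes, none a member, 16 members had an unadjusted p under 0.05 (29.1%, against 17.5% of all tested genes), 30 did not overlap (54.5%, against 51.8%), and the ephrin median was 0.39 in place of -0.03.

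DESeq2 called 350 genes and 2 members. With single libraries left out, edgeR called 0 to 2 genes and 0 members, 5 to 13 members had an unadjusted p under 0.05 (8.93% to 23.6%, against 6.09% to 12.3% of all tested genes) and 9 to 19 did not overlap (16.1% to 34.5%, against 22.8% to 33.5%). The median ran from -1.40 to -0.06 for the Unc5 genes. Limma gave 5 of 39 members with an unadjusted p under 0.05 with either pseudocount (12.8%, against 9.56% of 11907 genes). The Robo median was -0.66 with no filter, which lets in Robo3, and -0.76 by limma with a pseudocount of 1. The netrin median was -0.97 by limma with a pseudocount of 0.1, a fit that leaves out Ntn3, whose mean was 0.193 FPKM. The cause of the other shifts was not tested.

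The sources used here do not say whether the replicate numbers pair libraries, and pairing was not tested. Deviations of same-numbered libraries from their group means correlated at 0.048, 0.041 and 0.01, and those of differently numbered libraries at -0.08 to 0.035. With the number as a block, edgeR called 0 genes and 0 members, and 8 members had an unadjusted p under 0.05 (14.8%, against 7.58% of all tested genes).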

Other observations

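The CPM of a gene divided by its FPKM gives the gene length, here in bases, that the deposited FPKM implies. Among 10517 genes with at least 1 FPKM in every library, this implied length exceeded the gene's whole genomic span in 617 (5.87%), and it did so in 12 of 13 messenger RNAs of the mitochondrial genome. Among the members it did so for Ntn3, at 16358 bases against a span of 3097. For the 39 members with a mean of at least 1 FPKM, implied lengths ran from 326 bases for Plxnb1 to 24016 for Ntn4. An order of genes by FPKM is therefore uncertain. By FPKM the first 3 members were Plxnb2, Sema3c and Unc5b. Counted without any length, at 1336, 575 and 532 CPM, the first were Sema3c, Unc5b and Plxnb2. Robo2 ranked 34 by FPKM and 19 by CPM, Ntn4 35 and 17, and Plxnb1 7 and 34.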
